A study of Mus musculus with 4 samples.

Results

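The genes Cyp27a1, Cyp7b1, Ch25h and Hsd3b7, chosen by symbol as 4 of 31053 in a deposited single-cell count matrix, encode enzymes that make or clear oxysterols. The cells came from mouse fetuses at embryonic stages E14.5 and E18.5, and the labels give lung as the tissue throughout. Every fetus was labelled Cyp27a1-/-, whereas the mother was either Cyp27a1+/- (heterozygous) or Cyp27a1-/- (null), with 1 library for each age and mother. The design sets the mother's genotype apart from that of the fetus, since no group held a fetus with its own enzyme. The strain, the kind of deletion and the number of fetuses behind a library are not given in the sources used here. With 1 library per group there was no replicate, so no test was made. All intervals are exact 95% intervals for counting error only, and differences between litters, fetuses or preparations are not covered.

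Oxysterols are oxygenated forms of cholesterol that serve as signals and as intermediates on the way to bile acids. CYP27A1, a mitochondrial cytochrome P450, hydroxylates the side chain of cholesterol and gives 27-hydroxycholesterol. CH25H places a hydroxyl group on the neighbouring carbon of the side chain and gives 25-hydroxycholesterol, a product known from macrophages. CYP7B1, a cytochrome P450 of the endoplasmic reticulum, hydroxylates both products and so carries them towards bile acids. HSD3B7 then acts on the sterol ring of such intermediates. In the adult the liver is known for the whole route, while lung macrophages are known for high CYP27A1.

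The 4 libraries held 47005276 and 53293964 unique molecular identifiers (UMIs, single counted transcripts) at E14.5, with the heterozygous mother first, and 97894048 and 118054232 UMIs at E18.5. The E14.5 pair of libraries had 4957 and 4843 cells, the E18.5 pair 17034 and 16517. Each cell was placed in a class when it held at least 3 genes of a marker list and a higher share of that list than of any other, and class names below are to be read as epithelium-like, hepatocyte-like and so on. At E14.5, 6 classes had at least 50 cells in both libraries, with 6599 of 9800 cells. At E18.5, 10 classes did, with 30007 of 33551 cells. The libraries labelled lung at E18.5 went against that label. Sftpc, the gene of a surfactant protein, gave 13163 and 76960 UMIs in the E14.5 pair of libraries but 150 and 79 in the E18.5 pair. Alb, the albumin gene of the liver, gave 27 and 25 UMIs in the E14.5 pair but 284409 and 984995 in the E18.5 pair. The E18.5 classes were accordingly those of liver and blood, and the ages are not compared below. The name of the E18.5 library with the heterozygous mother carries a WT tag although its genotype label reads Cyp27a1-/-, which was used, and only 22 of its cells held Xist without Y-linked UMIs, against 5395 with the reverse. The null-mother library held 4411 and 3875 such cells. Between 93 and 164 cell barcodes were shared by each pair of libraries.

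The identity of each gene was read from GENCODE M21 on GRCm38. Cyp27a1 (ENSMUSG00000026170) lies on the plus strand of chromosome 1 from 74713574 to 74737892, Cyp7b1 (ENSMUSG00000039519) on the minus strand of chromosome 3 from 18071950 to 18243338, Ch25h (ENSMUSG00000050370) on the minus strand of chromosome 19 from 34473778 to 34475164, and Hsd3b7 (ENSMUSG00000042289) on the plus strand of chromosome 7 from 127800604 to 127803802. For 3 of the 4 genes RefSeq gives a promoter window on GRCm38.p6. The 250 bases upstream of the RefSeq start are shown for Cyp27a1, found in nearly every class, and Ch25h, found in almost no cell. The RefSeq starts differ from the GENCODE ones. The Cyp27a1 window ends at 74713534, short of the GENCODE start at 74713574, and the Ch25h window begins at 34475149, inside the GENCODE gene that ends at 34475164. Both read 5′ to 3′ on the strand of the gene, and capitals mark 4 motifs searched on both strands: the CCAAT box (CCAAT or ATTGG), the GC box (GGGCGG or CCGCCC), the TATA box (TATAAA or TTTATA) and the cAMP response element (TGACGTCA, the same on both strands). The marked motifs do not overlap each other.
Cyp27a1 (chr1:74713285-74713534, plus strand): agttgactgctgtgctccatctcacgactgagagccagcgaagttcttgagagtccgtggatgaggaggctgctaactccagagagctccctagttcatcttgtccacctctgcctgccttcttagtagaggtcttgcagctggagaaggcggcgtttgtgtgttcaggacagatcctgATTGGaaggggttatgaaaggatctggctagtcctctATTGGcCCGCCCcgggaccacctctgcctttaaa
Ch25h (chr19:34475149-34475398, minus strand): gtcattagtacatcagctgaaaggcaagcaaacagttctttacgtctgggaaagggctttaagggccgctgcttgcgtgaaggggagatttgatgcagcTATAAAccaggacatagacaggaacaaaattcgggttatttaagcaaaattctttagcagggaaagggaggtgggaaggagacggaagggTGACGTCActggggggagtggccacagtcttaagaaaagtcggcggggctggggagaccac
The Cyp27a1 window holds the CCAAT box in reverse at 66 and at 29 bases before the RefSeq start, and a GC box in reverse at 22 bases before it. The Ch25h window holds a TATA box at 145 bases and a cAMP response element at 53 bases before the RefSeq start. Of 32851 RefSeq windows of this length, 33.8% hold a CCAAT box, 32.7% a GC box, 12.4% a TATA box and 1.55% a cAMP response element. A match of letters is a description of the sequence and not a bound site.

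Cyp27a1 transcripts were counted in all 4 libraries although every fetus was labelled Cyp27a1-/-. The E14.5 pair held 878 and 1049 UMIs and the E18.5 pair 3766 and 4402, with the heterozygous mother first here and below. Counts per gene do not show which exons were read, so they are no check of the label. At least 1 UMI was held by 1461 of the 9800 E14.5 cells and by 5987 of the 33551 E18.5 cells.

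Among the 6 E14.5 classes with at least 50 cells in both libraries, the epithelium held the most Cyp27a1 for its size. Its level, in UMIs per 1000000 UMIs of the class (CPM), was 31.6 (27.6 to 36.0) with the heterozygous and 30.4 (27.3 to 33.8) with the null mother. The mesenchyme had 15.4 and 16.9 CPM, the macrophages 17.4 and 14.8, the endothelium 14.3 and 15.6 and the smooth muscle 14.2 and 14.2. The interval of the epithelium lay above that of the mesenchyme, the next class in order, in both libraries, and the order among the other 4 classes was within counting error. The macrophage values rest on 9 and 11 UMIs in 52 and 60 cells. The epithelium held 25.7% and 33.5% of the gene's UMIs with 15.2% and 21.7% of the libraries' UMIs.

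The E14.5 erythroid cells had 0 and 4 Cyp27a1 UMIs, which is 0 and 3.73 CPM, apart from the smooth muscle in both libraries. Haemoglobin took 87.5% and 79.9% of their UMIs, and without haemoglobin and mitochondrial genes the null-mother value was 19.2 CPM (5.24 to 49.2). The count of 0 allows up to 35.7 CPM on that scale in the library of the heterozygous mother. A level below that of the other classes was therefore not detectable at this depth once haemoglobin was left out.

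**Figure D1:**
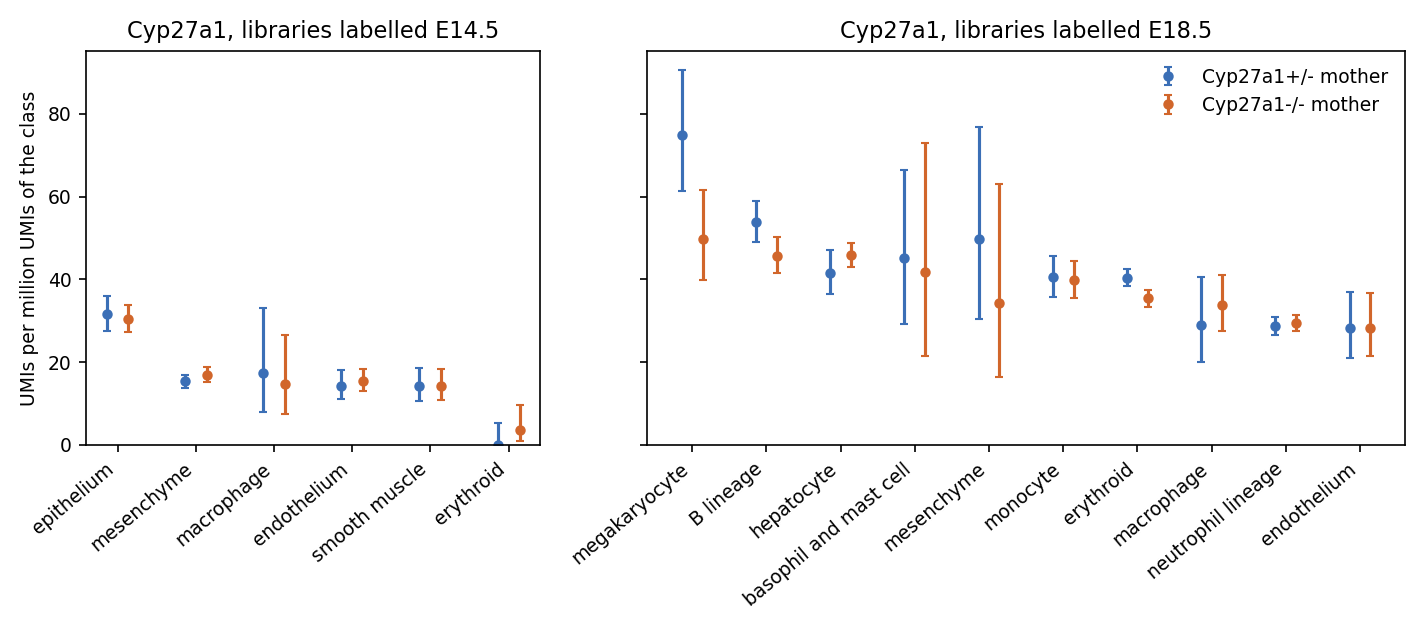
Cyp27a1 level in UMIs per 1000000 UMIs of the class, for each class with at least 50 cells in both libraries of an age, with blue points for the Cyp27a1+/- and orange points for the Cyp27a1-/- mother and bars for exact 95% Poisson intervals. The E14.5 epithelium stands above the other E14.5 classes at 31.6 and 30.4, and the 10 E18.5 classes form a series in which no class lies apart from the next in both libraries.

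At E18.5 Cyp27a1 was found in all 10 classes. Megakaryocytes had 75.0 CPM (61.4 to 90.7) with the heterozygous and 49.9 (39.9 to 61.6) with the null mother. The B lineage followed with 53.8 and 45.8 CPM, the hepatocytes with 41.5 and 45.9, the basophils and mast cells with 45.1 and 41.8, the mesenchyme with 49.7 and 34.3 and the monocytes with 40.5 and 39.8. The erythroid cells had 40.4 and 35.4 CPM. The lowest classes were the macrophages with 29.0 and 33.8 CPM, the neutrophil lineage with 28.6 and 29.5 and the endothelium with 28.2 and 28.3. No class lay apart from the next one in the order in both libraries. Hepatocytes, the cells best known for the enzyme's part in bile acid synthesis, lay apart from the neutrophil lineage in both libraries but not from the B lineage or the monocytes in both. Macrophages were among the lower classes. They came from libraries of liver and blood cells, so they are not set against the lung macrophages known for the enzyme.

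The evenness was set beside that of other genes. With both libraries of an age summed and 10 CPM added, the highest of the 10 E18.5 classes stood 1.86 times above the lowest, and 12.7% of the 9115 genes with at least 1000 UMIs were more even. Among 1138 genes within 1.25 times its level the share was 7.91%. At E14.5 the same multiple was 3.33 over 6 classes, with 26.3% of 8119 genes and 57.6% of 1532 genes of similar level more even. The lowest E14.5 class was the erythroid at 2.26 CPM, and most of its UMIs were haemoglobin, as given above. The multiple was not worked out without that class.

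Cyp27a1 was set beside genes of the hepatocytes, by the level in blood cells as a percentage of that in hepatocytes. In erythroid cells Alb stood at 0.252% and 0.792% of its level in hepatocytes, and Cyp27a1 at 97.4% and 77.3%. In the neutrophil lineage Alb stood at 0.230% and 0.586% of its hepatocyte level and Cyp27a1 at 69.0% and 64.4%. Afp, the fetal serum protein of the liver, was at 0.217% and 0.761% in erythroid cells. How much of the Cyp27a1 count in a class came from free RNA, of hepatocytes or of other cells, was not tested.

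The share of cells with a Cyp27a1 UMI was compared after each cell had been thinned to 1500 UMIs, which leaves out shallower cells. At E18.5 it was 6.10% of 689 and 6.95% of 2330 hepatocytes and 6.95% of 1668 and 6.21% of 1707 B-lineage cells. In erythroid cells it was 3.44% of 5354 and 3.71% of 3636, and the intervals of hepatocytes and B-lineage cells lay above those of erythroid cells in both libraries. Haemoglobin took 27.9% and 17.5% of the erythroid UMIs, which leaves fewer of the 1500 for other genes. Without haemoglobin and mitochondrial genes the erythroid level was 57.9 and 44.2 CPM and that of hepatocytes 47.0 and 50.6 CPM, so their order then differed between the libraries. The neutrophil lineage, at 3.59% and 3.54%, did not exceed the erythroid share beyond counting error. Unthinned, the shares were 21.4% and 27.6% of hepatocytes, 16.2% and 15.5% of B-lineage cells, 17.97% and 20.08% of erythroid cells and 14.3% and 18.2% of the neutrophil lineage. At E14.5 the thinned share was 5.90% and 3.96% in the epithelium and 2.11% and 2.11% in the mesenchyme. It was 0 of 63 and 0 of 108 erythroid cells, where a floor of 3 counts is 4.76% and 2.78%.

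Cyp27a1 also differed within classes. Neutrophil-lineage cells with early granule genes (at least 2 of Mpo, Elane, Prtn3 and Ctsg, and no Ltf, Camp or Mmp8) had 44.9 CPM (35.5 to 56.0) and 46.5 CPM (38.3 to 56.0). Those with late granule genes (at least 2 of Ltf, Camp, Ngp, Lcn2 and Mmp8, and no Elane, Prtn3 or Ctsg) had 18.9 CPM (16.2 to 21.9) and 18.7 CPM (15.6 to 22.4), so the early cells were higher in both libraries with intervals apart. Early cells held a median of 10488.5 and 9641 UMIs and late cells 3438 and 4255, and the part of depth in the difference was not tested. Erythroid cells with under 10% haemoglobin had 55.6 and 43.9 CPM and those with over 30% had 9.96 and 11.5 CPM. Without haemoglobin and mitochondrial genes in the denominator these became 58.7 and 45.7 against 35.6 and 30.8 CPM. In the E14.5 epithelium, cells with Sox2 and no Sox9, a proximal airway pattern, had 49.6 CPM (36.3 to 66.2) and 35.1 CPM (26.9 to 45.0). Cells with Sox9 and no Sox2, a distal tip pattern, had 29.0 and 28.8 CPM, and the intervals were apart only with the heterozygous mother. These divisions were chosen after values had been seen.

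Over the 32 units of a class in a library, the genes most like Cyp27a1 by the correlation of log2(CPM + 10) were Mrpl57 (Pearson r = 0.86), Larp4b (r = 0.85) and Rpl36al (r = 0.84), of 10847 genes compared. Mrpl57 and Rpl36al are ribosomal protein genes, of the mitochondrial and the cytosolic ribosome, and Larp4b encodes an RNA-binding protein. The units pool both ages, whose tissues differ as given above, so any shift in level between the ages enters the correlation. Units of a library share its depth and preparation, and E14.5 erythroid units are low for most genes, so the correlation describes these units only.

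The mother's genotype was compared as the ratio of CPM, null over heterozygous mother. A ratio counted as measured where the library of higher CPM held at least 50 UMIs, and as past the fold at 1.5 or more, or at its inverse or less. Over all cells outside the erythroid class Cyp27a1 stood at 19.0 and 20.0 CPM at E14.5, a ratio of 1.06 (0.964 to 1.16), and at 37.1 and 38.0 CPM at E18.5, a ratio of 1.02 (0.969 to 1.08). Over all measured genes 11.6% were past the fold at E14.5 and 15.2% at E18.5. Both Cyp27a1 intervals held 1, but without the deepest cells the E18.5 ratio was 1.07 (1.01 to 1.14).

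Of 12 measured class ratios of Cyp27a1, 9 had intervals that held 1, and 3 lay below 1, all at E18.5. In the B lineage 469 and 451 UMIs gave a ratio of 0.851 (0.746 to 0.971). The interval held 1 without the deepest cells (0.777 to 1.02), with only male cells (0.665 to 1.03) and with the stricter gate (0.747 to 1.01). In megakaryocytes 106 and 86 UMIs gave 0.665 (0.494 to 0.892), the only one of the 12 past the fold. Of all measured genes in that class 8.43% were past it. In the E14.5 classes the share past the fold was 5.92% in the endothelium, 5.95% in the epithelium, 4.88% in the mesenchyme and 5.51% in the smooth muscle. At E18.5 it was 5.72% in the B lineage, 6.48% in the endothelium, 18.2% in the erythroid cells, 12.5% in the hepatocytes, 12.5% in the macrophages, 5.48% in the monocytes and 6.84% in the neutrophil lineage. The megakaryocyte ratio was short of the fold with the looser gate (0.730), without cells of shared barcodes (0.700), without the deepest cells (0.687) and with another size factor (0.667). Megakaryocytes numbered 111 and 68, with a median of 8148 and 15934 UMIs per cell, and their thinned shares with a UMI were 6.52% and 6.25%. In erythroid cells 1621 and 1190 UMIs gave 0.877 (0.813 to 0.946), while the median of all measured genes in that class was 1.23, a shift of 0.30 on the log2 scale, beside haemoglobin shares of 27.9% and 17.5%. Without haemoglobin and mitochondrial genes the erythroid ratio was 0.763, whereas the mean over cells gave 1.04, so its direction depended on the weighting of cells, and with the stricter gate its interval reached 1. The hepatocytes had a ratio of 1.11 (0.959 to 1.28) beside a median of all genes of 1.11, a shift of 0.16.

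**Figure D2:**
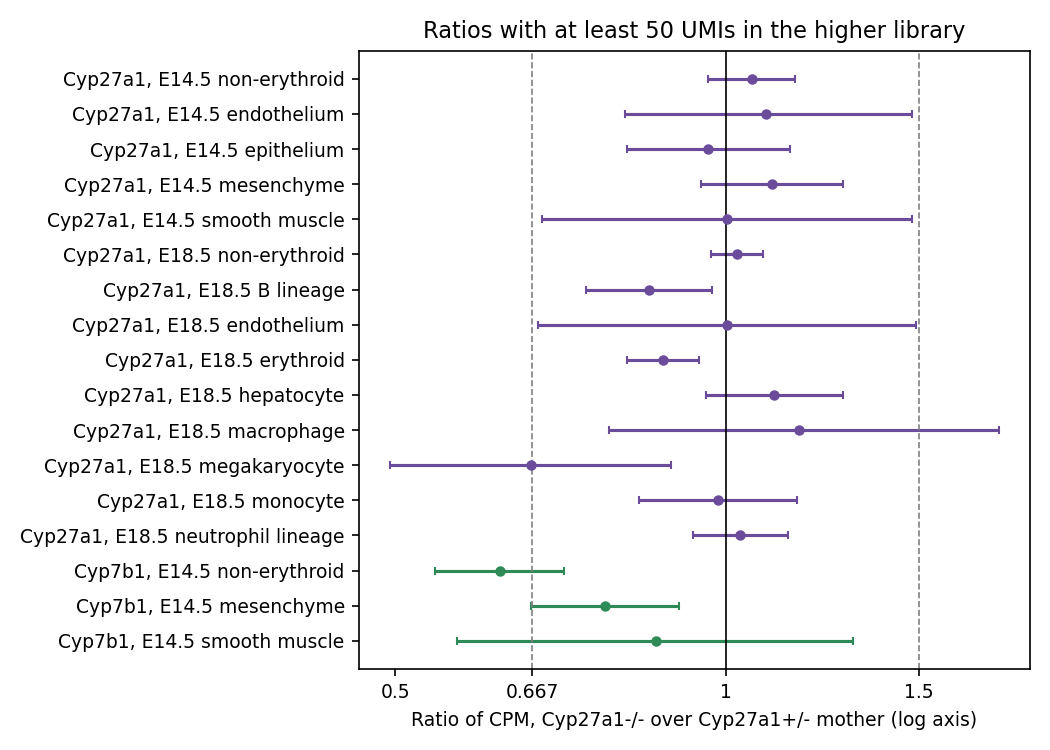
Ratio of CPM, null over heterozygous mother, on a log axis for every class and gene with at least 50 UMIs in the library of higher CPM, with exact 95% intervals, a solid line at 1 and dashed lines at 1.5 and its inverse. Cyp27a1 (purple) lies near 1 over non-erythroid cells, at 1.06 and 1.02, and Cyp7b1 (green) lies at 0.622 over E14.5 non-erythroid cells and at 0.776 in the mesenchyme.

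Cyp7b1 was a gene of stromal cells. At E14.5 it had 531 and 372 UMIs, of which the mesenchyme held 414 and 279, or 78.0% and 75.0%, with 51.1% and 39.1% of the libraries' UMIs. The level was 17.2 CPM (15.6 to 19.0) and 13.4 CPM (11.9 to 15.1) in the mesenchyme, and 13.4 CPM (9.99 to 17.6) and 11.6 CPM (8.54 to 15.4) in the smooth muscle, and these classes were not apart. The epithelium had 1.96 and 1.30 CPM and the endothelium 0.842 and 1.11, and the smooth muscle lay above the epithelium in both libraries. Macrophages had 0 UMIs in both, which allows up to 5.81 and 4.04 CPM. The low epithelial level was 11.3% and 9.71% of that of the mesenchyme, against 1.17% and 1.72% for Col1a1, a collagen gene of the mesenchyme. Col1a1 is on the marker list that placed cells in the mesenchyme and Cyp7b1 is not, so the gate itself can lower the Col1a1 share. The source of the epithelial Cyp7b1 UMIs was not tested.

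At E18.5 only 36 and 25 Cyp7b1 UMIs were counted. The endothelium held 24 and 11 of them, 13.03 CPM (8.35 to 19.4) and 5.56 CPM (2.77 to 9.94), and the mesenchyme 5 and 4, 12.4 and 13.7 CPM. The neutrophil lineage held 1 and 3, and the erythroid class 0 among 73718201 UMIs of both libraries. Hepatocytes, the adult site of the enzyme, held 0 in 844 and 2654 cells, where a floor of 3 counts is 0.523 and 0.136 CPM. The endothelial level was 24.9 times that floor with the heterozygous mother and 40.9 times with the null mother. These multiples use the level as counted, on 24 and 11 UMIs, and leave out its interval, so they are not lower bounds.

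**Figure D3:**
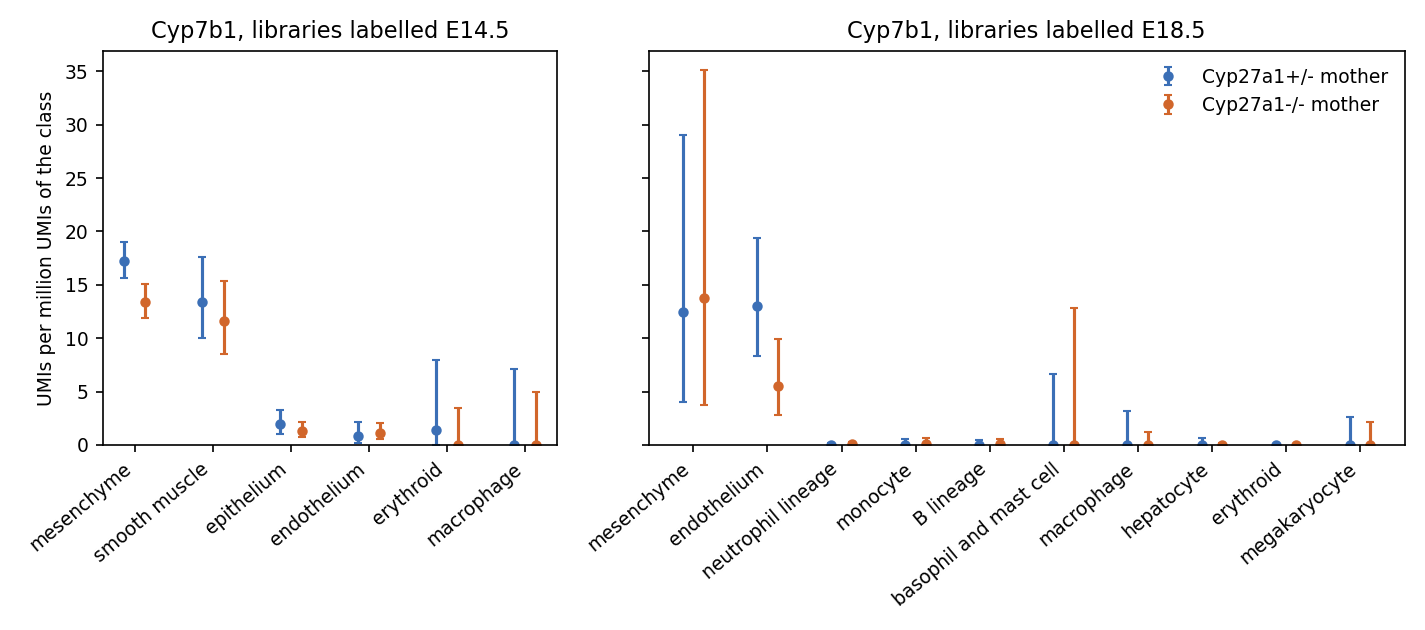
Cyp7b1 level in UMIs per 1000000 UMIs of the class, drawn as in the plot of Cyp27a1 levels, with exact 95% Poisson intervals. Mesenchyme and smooth muscle carry the gene at E14.5 and mesenchyme and endothelium at E18.5, with all other E18.5 classes at or near 0.

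The E18.5 endothelium was mostly of a liver sinusoid pattern, with 375 of 459 and 383 of 433 cells holding at least 2 of Lyve1, Stab2 and Gpr182. Those cells had 22 and 10 Cyp7b1 UMIs, 14.4 and 5.49 CPM. At E14.5 the mesenchyme held the gene in both of its parts that were looked at: cells with Wnt2 and no Dcn had 12.4 and 10.3 CPM, and cells with Dcn and no Wnt2 had 17.0 and 11.3 CPM. Cells with at least 2 of 5 mitosis genes had 16.3 and 12.2 CPM and cells with none 21.7 and 15.5 CPM, with overlapping intervals in each library. The intervals of the mothers overlapped in 3 of these 4 parts, which share cells, and were apart in cells with at least 2 mitosis genes.

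**Figure D4:**
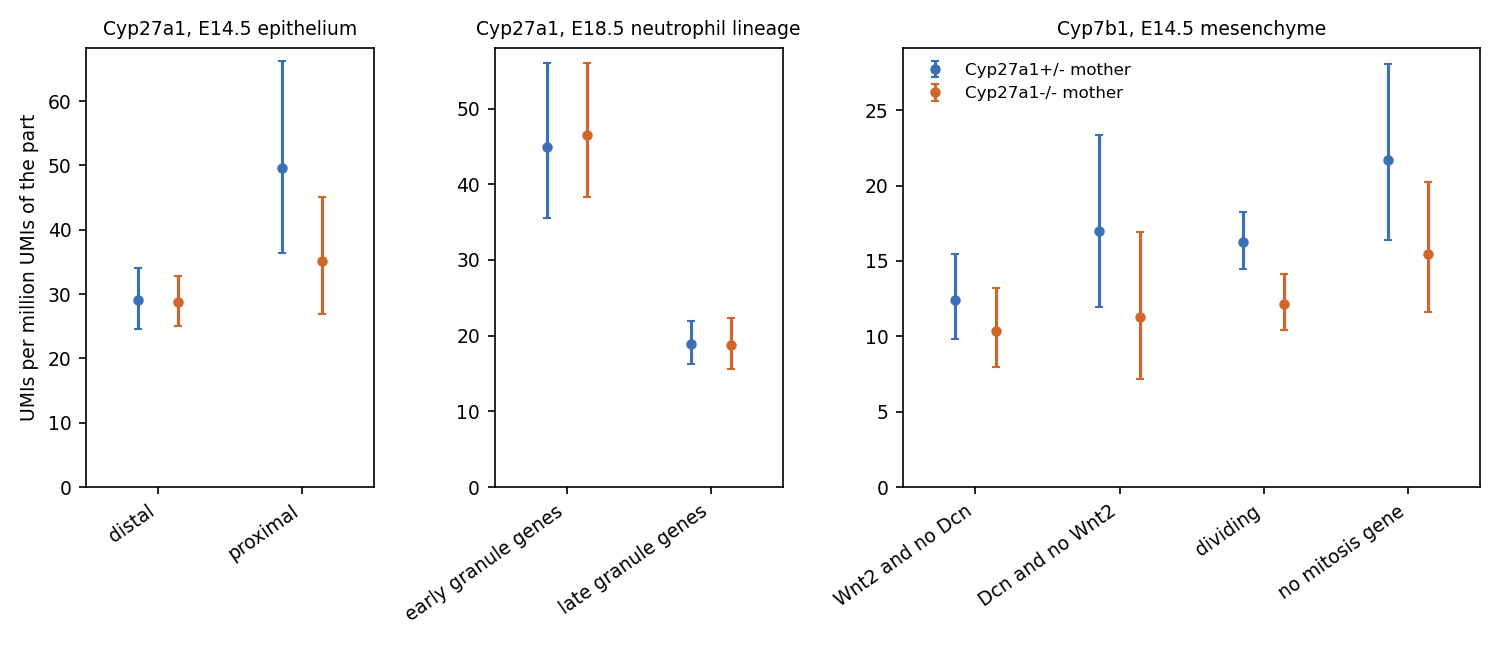
Levels within classes in UMIs per 1000000 UMIs of the part, with exact 95% Poisson intervals, for Cyp27a1 in the E14.5 epithelium and the E18.5 neutrophil lineage and for Cyp7b1 in the E14.5 mesenchyme. Early neutrophil-lineage cells lie above late ones in both libraries, at 44.9 and 46.5 against 18.9 and 18.7.

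Cyp27a1 and Cyp7b1 met in the E14.5 mesenchyme. Of 2006 such cells with the heterozygous mother 299 held Cyp27a1, 332 held Cyp7b1 and 72 held both, and of 1817 with the null mother 288, 235 and 59 did. Cells with both had a median of 22393.5 and 19882 UMIs against 10827 and 11036 in the whole class, so the joint counts lie in deep cells. The genes most like Cyp7b1 over the 32 units, which pool both ages, were Hic1 (r = 0.95), Eml1 (r = 0.95) and Itga8 (r = 0.95). Hic1 encodes a transcriptional repressor known from mesenchymal cells, Eml1 a microtubule-associated protein and Itga8 an integrin subunit of stromal cells. Hic1 itself had 96.4 and 82.8 CPM in the E14.5 mesenchyme and 36.9 and 27.8 CPM in the E18.5 endothelium.

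Cyp7b1 was lower with the null mother over all E14.5 non-erythroid cells and in the mesenchyme. Over E14.5 non-erythroid cells its level was 11.4 CPM (10.5 to 12.5) with the heterozygous and 7.12 CPM (6.42 to 7.89) with the null mother, a ratio of 0.622 (0.544 to 0.712), and 3.36% of measured genes were past the fold in that direction. With each cell weighted equally the ratio was 0.709, short of the fold. The mesenchyme, its main class, took a smaller share of the null-mother library, as given above. The part of this share in the ratio was not tested. Within the mesenchyme the ratio was 0.776 (0.665 to 0.906), short of the fold, which 1.86% of genes passed downwards there. With each cell weighted equally it was 0.602, past the fold, and with only male cells the interval held 1 (0.547 to 1.02). In the smooth muscle the ratio was 0.863 (0.570 to 1.31), and it went to 1.40 with each cell weighted equally and to 0.516 with only male cells. At E18.5 the counts of 36 and 25 UMIs were below the minimum for a ratio, and in the endothelium 24 against 11 UMIs gave 0.427 (0.189 to 0.905), too few to count as measured.

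Ch25h was close to absent. The E14.5 pair held 11 and 4 UMIs and the E18.5 pair 1 and 3, each in a cell of its own. The E14.5 mesenchyme held 8 and 2 of them, 0.333 CPM (0.144 to 0.657) and 0.0960 CPM (0.0116 to 0.347). The macrophages, a cell type from which the enzyme is known, held none at either age. Over both libraries their interval reached 2.93 CPM at E14.5 and 0.886 CPM at E18.5. A level like that of the E14.5 mesenchyme could therefore go unseen in them. Ch25h shares 159 exonic bases, 11.5% of its exonic length, with the long non-coding gene Gm26902 on the opposite strand. None of these lie among the last 300 exonic bases of Ch25h. Gm26902 held 14 and 6 UMIs in the E14.5 pair against 2 and 4 in the E18.5 pair. Whether the counting used strand is not given in the sources used here, so a few counts of one gene may belong to the other.

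Hsd3b7 was nearly as rare, with 7 and 18 UMIs in the E14.5 pair and 15 and 28 in the E18.5 pair. At E14.5 the endothelium held 2 and 11 of them, 0.421 CPM (0.0510 to 1.52) and 1.22 CPM (0.611 to 2.19), and the mesenchyme 3 and 5. At E18.5 the hepatocytes held 3 and 15, 0.523 CPM (0.108 to 1.53) and 0.680 CPM (0.380 to 1.12). None of these counts reached the minimum for a ratio. The counts of this gene are uncertain: the protein-coding Gm49388 (127785608 to 127803802 on the same strand) spans the whole locus and shares 62.0% of its exonic bases, including all of the last 300, and it had 0 UMIs in every library. How reads in both genes were counted is not given in the sources used here.

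The genes around the 4 enzymes were taken from 5 lists of 46 genes: other oxysterol-forming hydroxylases, clearance and later bile acid steps, sulphation and esterification, electron donors and sterol delivery to mitochondria, and oxysterol receptors and sensors. At E14.5, 29 of the 46 were measured over non-erythroid cells, and 4 were past the fold, all higher with the null mother, where 8.24% of all genes were, with a list median ratio of 1.07 against 0.978 for all genes. They included Cyp11a1 (0.410 and 2.53 CPM), which starts steroid synthesis, Hsd11b1 (0.497 and 1.69 CPM), a steroid and oxysterol ketone reductase, and Tspo (56.1 and 92.5 CPM), a protein of the outer mitochondrial membrane. The Cyp11a1 UMIs with the null mother lay mostly in 12 basophil and mast cells, with 116 of 132, a class of 1 cell with the heterozygous mother.

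In the E14.5 mesenchyme 24 list genes were measured and 3 were past the fold, all higher with the null mother. Nr1h3, the oxysterol receptor LXR alpha, had 345 and 491 UMIs, 14.4 and 23.6 CPM, a ratio of 1.64 (1.43 to 1.89). Tspo had 35.9 and 54.6 CPM and Hsd11b1 0.541 and 2.64 CPM on 13 and 55 UMIs. Background among all genes was 3.02% in that direction. In the epithelium Cyp39a1, a sterol hydroxylase, had 14.4 and 8.75 CPM and Amacr, a racemase of bile acid synthesis, 7.96 and 4.16 CPM, and Tspo was higher, of 22 measured and with 5.95% of all genes past the fold in either direction. Gpr183, the receptor of dihydroxy-oxysterols, was past the fold in the E14.5 macrophages at 126 and 78.1 CPM, the only one of 5 measured, where 17.0% of all genes were past it in either direction.

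In the E18.5 hepatocytes, where all 14 later bile acid genes were measured, 38 list genes were measured, 4 were higher past the fold and 2 lower, against 12.5% of all genes in either direction. Cyp7a1, the first enzyme of the other route to bile acids, had 229 and 503 UMIs, 39.9 and 22.8 CPM, a ratio of 0.571 (0.487 to 0.670). Akr1c6, an aldo-keto reductase, had 46.0 and 28.9 CPM. Cyp3a11, a cytochrome P450 induced by bile acids, had 27.5 and 96.6 CPM, a ratio of 3.51 (2.98 to 4.15), and Ephx1 and Stard3 were also higher, with ratios of 1.92 and 1.51. Cells female by Xist were few in the heterozygous-mother library, as given above, so sex and mother are not separated for these genes. No ratio in male cells alone is given for them. Over all E18.5 non-erythroid cells 22 of 44 were higher past the fold, as were 9.59% of all genes, and 1 was lower. The list median was at the fold itself, against 0.980 for all genes. Hepatocytes took 5.86% and 18.7% of all UMIs of the E18.5 libraries, erythroid cells included. The part of this share in the list ratios was not tested. In the monocytes and in the neutrophil lineage 0 of 21 and 0 of 20 measured list genes were past the fold, against 5.48% and 6.84% of all genes.

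In the E18.5 erythroid cells 10 of 22 measured list genes were past the fold, all higher with the null mother, where 18.2% of all genes were past it in either direction. The list median was 1.38 against 1.23 for all genes. The genes included Fdx1 (11.3 and 21.2 CPM) and Fdxr (8.17 and 13.6 CPM), the ferredoxin and ferredoxin reductase that pass electrons to mitochondrial cytochromes P450 such as CYP27A1. Nr1h3 had 18 and 111 UMIs there, 0.449 and 3.30 CPM. In the E18.5 macrophages 1 of 13 was past the fold, Npc1, a cholesterol transporter of the lysosome, with 85.2 and 49.2 CPM, against 12.5% of all genes. In the E14.5 endothelium 2 of 21 were, Npc1 with 7.79 and 12.8 CPM and Cyp39a1 with 3.58 and 6.01 CPM, both higher with the null mother, against 5.92% of all genes in either direction.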

How the data were processed

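Single-cell RNA was measured in 4 libraries with 1 library per group. The authors deposited raw UMI counts per gene and cell, in whole numbers, with total count and gene number per cell. Per the submitters' processing notes Cell Ranger 3.0.0, Seurat 4.3.0 and mm10 were used, without settings. The lowest cell had 500 UMIs, which points to a cell filter before deposit; doublets were neither called nor removed here. The deposited gene and cell name files carry each other's names, and the totals of all 43351 cells equal the matrix sums. Groups come from the sample labels.

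Python 3.11.15, numpy 2.4.6, pandas 2.3.3 and scipy 1.17.1 summed UMIs per class and library, gave CPM with exact Poisson intervals, and compared libraries as a ratio with an exact conditional binomial interval. Marker gates used 16 lists of 117 genes; 31.6%, 26.3%, 11.3% and 9.14% of cells stayed unassigned. Floors are 3 counts. Cells were thinned with seed 1, and shares have exact Clopper-Pearson intervals. The named genes are the 4 enzymes, the 3 most like each with at least 200 UMIs, and list genes past the fold, of which some are not reported here. Alternatives were 2 other scalings, means over cells, cell filters, male cells, other gates and other thinning. The ratio was tested on simulated data. Members and lists were chosen with earlier results of these data known. The divisions of classes, the genes Sftpc, Alb, Afp and Col1a1, and an alternative without cells of shared barcodes were added after values were seen.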

Additional observations from a re-analysis of the deposited data

How the results depend on the processing

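No paired analysis was possible because each group had 1 library. For Cyp27a1 over non-erythroid cells, equal weight per cell gave 0.881 at E14.5 and 1.12 at E18.5, only male cells gave 1.18 at E14.5, and all cells gave 0.969 at E18.5. The E18.5 erythroid ratio turned to 1.04 with equal weight per cell. For Cyp7b1 over E14.5 non-erythroid cells only male cells gave 0.532, and its range over 8 alternatives was 0.532 to 0.709. The E14.5 smooth muscle ratio of Cyp27a1 went to 0.557 with the stricter gate. The megakaryocyte ratio of Cyp27a1 ranged from 0.554 to 0.730. The cause of these shifts was not tested. Of 125 class ratios under alternatives, 117 moved by less than their interval. With equal weight per cell, 3 of 6 levels of the highest class over the library's moved beyond their interval. Shares of cells rise with the UMIs kept, so 63 of 64 moved. Ch25h and Hsd3b7 are limited by depth throughout.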

Other observations

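Some classes had under 50 cells in a library and entered no comparison. The E14.5 heart muscle class, with 96 and 48 cells, held 52 and 26 Cyp27a1 UMIs, 73.4 and 98.4 CPM, above the E14.5 epithelium in both libraries. It was named after its value was seen. The E14.5 mesothelium, with 61 and 18 cells, held 42 and 10 Cyp27a1 UMIs, and 25 Cyp7b1 UMIs over both libraries, 15.5 CPM (10.0 to 22.9). The E18.5 epithelium, with 25 and 8 cells, held 17 and 4 Cyp27a1 UMIs, 82.6 CPM (51.1 to 126) over both libraries. In the T and innate lymphoid class at E14.5, with 40 cells, Cyp27a1 had 34 UMIs and Cyp7b1 0.

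The unassigned cells held 80 Cyp27a1 UMIs at E14.5, 12.2 CPM, and 433 at E18.5, 35.5 CPM, close to the level of all cells of that age at 19.2 and 37.8 CPM only in the latter case.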
